A study of Homo sapiens with 6 samples.

Results

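The transcripts described here are the retained intron transcripts of EoL-1 cells: entries that GENCODE types as retained_intron, meaning that an exon of the transcript runs through sequence that other transcripts of the gene remove as an intron. Members were the retained_intron transcripts with a mean of 20 estimated reads or more over all 6 libraries. Of 27070 such transcripts among the 177456 deposited, 19221 had any read and 7428 were members, from 3884 parent genes. They were thus chosen by a measured value, their read number. The nearest transcripts above the limit were those of ASL (ENST00000496336.1) and WRAP53 (ENST00000467699.5), with means of 20.0058 and 20.0117 reads. The nearest below were those of RGP1 (ENST00000496906.1) and PIGS (ENST00000577620.5), with 19.9973 and 19.9983. The limit applied to the mean of both groups together, so a transcript present in a single group could pass through that group.

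EoL-1 is a human line established from an eosinophilic leukaemia. The 6 libraries, made from poly(A) RNA, were 3 of wild-type EoL-1 cells and 3 of EoL-1 cells labelled as a CRISPR/Cas9 knockout of ATF3, which the design text calls a knockdown. Whether the knockout cells are a clone or a pool, and whether replicates were separate cultures, is not given in the sources used here, so p-values measure the spread between these libraries, which may be technical. Libraries held 26766103 to 30117281 estimated reads. Of 11 eosinophil markers, RNASE2, RNASE3 and ADGRE1 reached a mean CPM (reads scaled to library size) of 1, and EPX, PRG3, CLC and IL5RA stayed under 0.1. The gene ATF3 was lower in the knockout libraries by 1.75 on the log2 scale (adjusted p = 0.0098, edgeR quasi-likelihood test).

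Introns are removed from nascent RNA by the spliceosome, which recognises the donor site at the start of the intron, usually GT, and the acceptor site at its end, usually AG. RNA that keeps an intron is often held in the nucleus or degraded by nonsense-mediated decay, and some such introns, called detained introns, are spliced later in response to a signal. Retained introns in mammals tend to be short and rich in G and C, and granulocyte maturation is a known setting of regulated retention. ATF3 is a stress-induced transcription factor of the ATF/CREB family.

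Of the 7428 members, 7372 had a protein-coding parent gene. The median member was 1143.5 bases long with a GC content of 51.9%. A whole intron of another transcript of the gene (30 bases or longer) lay inside 3495 members, while the others held part of an intron, such as an exon that runs on past a donor site. In 116 members no base lay outside the exons of other transcript types, and in 1054 every base was also in an exon of another transcript of the gene, so that reads can be assigned to these only by their combination of exons. Members held 7023 distinct whole introns with a median of 326 bases and a GC content of 54.9%. Of these, 96.7% ran from GT to AG, 2.14% from GC to AG and 0.214% from AT to AC.

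The ends of 5 long retained introns are printed because the results below turn on their transcripts. Each start shows the last 3 exon bases and the first 20 intron bases, and each end the last 40 intron bases and the next 3 exon bases. All sequences are read from the transcripts of GENCODE 29 on GRCh38, 5′ to 3′ on the strand of the gene, and capitals mark the first and last 2 bases of the intron. The introns lie at chr1:212618235-212619045 (plus strand, 811 bases), chrX:71544636-71547906 (plus, 3271 bases), chr22:38488116-38492055 (minus, 3940 bases), chr21:39345959-39347246 (minus, 1288 bases) and chr12:53196821-53197492 (minus, 672 bases).
ATF3 intron start: aaaGTgagtgccttctagcctta
ATF3 intron end: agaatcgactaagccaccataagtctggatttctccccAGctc
OGT intron start: aagGTaggtgtttgatagaacac
OGT intron end: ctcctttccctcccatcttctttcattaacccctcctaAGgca
DDX17 intron start: tagGTttgtatagataggtgtct
DDX17 intron end: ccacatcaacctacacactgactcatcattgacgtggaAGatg
HMGN1 intron start: aagGTatgagaatagtatttttc
HMGN1 intron end: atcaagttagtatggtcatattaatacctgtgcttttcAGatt
ITGB7 intron start: ttgGTgagccgagcgctgcctcc
ITGB7 intron end: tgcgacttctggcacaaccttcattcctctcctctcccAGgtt

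The RPS23 member is among the 3 with the most reads and the VCP member has the most reads of the proteasome and ubiquitin list. Each differs from the exons of other transcript types by 1 short intron, printed whole. They lie at chr5:82277853-82277930 (RPS23, minus strand, 78 bases, GC 37.2%) and chr9:35062139-35062216 (VCP, minus strand, 78 bases, GC 55.1%).
RPS23 intron: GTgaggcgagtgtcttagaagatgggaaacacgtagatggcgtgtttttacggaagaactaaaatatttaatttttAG
VCP intron: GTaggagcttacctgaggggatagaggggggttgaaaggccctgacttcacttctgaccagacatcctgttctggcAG

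A further 6 short introns show the range of GC content over which the shares differed. They were chosen after their values were seen, as the only whole intron of their member, at 60 to 300 bases, with the smallest p in the top of 5 groups by intron GC and a higher share (UNC93B1, chr11:68003799-68003947, minus strand; PCGF1, chr2:74507148-74507357, minus; FBRS, chr16:30668644-30668771, plus), or in the bottom group and a lower share (NARS1, chr18:57607334-57607443, minus; KCNN2, chr5:114486804-114487049, plus; CD46, chr1:207767652-207767778, plus). The first 3 hold 83.9%, 67.6% and 68.8% GC and the last 3 hold 35.5%, 37.4% and 33.9%. The PCGF1 intron starts with GC in place of GT.
UNC93B1 intron: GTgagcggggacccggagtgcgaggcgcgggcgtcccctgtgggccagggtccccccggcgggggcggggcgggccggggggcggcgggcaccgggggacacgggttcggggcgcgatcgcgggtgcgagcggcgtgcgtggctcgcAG
PCGF1 intron: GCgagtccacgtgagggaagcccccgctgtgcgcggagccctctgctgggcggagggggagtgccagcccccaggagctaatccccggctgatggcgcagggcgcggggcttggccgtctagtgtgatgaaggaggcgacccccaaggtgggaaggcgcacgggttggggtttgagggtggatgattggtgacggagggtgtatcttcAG
FBRS intron: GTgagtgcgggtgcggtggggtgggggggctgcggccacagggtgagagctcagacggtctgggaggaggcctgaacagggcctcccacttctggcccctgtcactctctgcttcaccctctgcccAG
NARS1 intron: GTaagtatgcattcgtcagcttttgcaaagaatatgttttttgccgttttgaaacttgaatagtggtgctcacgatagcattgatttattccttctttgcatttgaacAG
KCNN2 intron: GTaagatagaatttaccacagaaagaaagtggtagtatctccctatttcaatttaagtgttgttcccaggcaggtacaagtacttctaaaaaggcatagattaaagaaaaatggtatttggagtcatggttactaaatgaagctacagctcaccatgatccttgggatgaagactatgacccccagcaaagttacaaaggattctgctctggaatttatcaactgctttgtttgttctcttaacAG
CD46 intron: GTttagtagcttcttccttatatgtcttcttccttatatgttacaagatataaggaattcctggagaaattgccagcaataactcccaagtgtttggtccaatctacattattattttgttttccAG

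Retained intron members took a slightly larger part of the reads of their genes in the knockout libraries. Summed over members, they held 8.45, 8.42 and 8.05% of the reads of their parent genes in the wild-type libraries and 8.60, 8.82 and 8.91% in the knockout libraries, means of 8.30 ± 0.225% and 8.78 ± 0.163% (SD, n = 3 each). Every knockout library was above every wild-type library, by a difference of means of 0.473 percentage points. The median share over members overlapped, at 3.45, 3.39 and 3.21% against 3.36, 3.60 and 3.63%. Over all reads joined to a gene, the members held 4.85, 4.82 and 4.62% against 4.80, 4.80 and 5.03%, which also overlapped. With 3 libraries against 3, an exact permutation test cannot go below 0.1, so no single value of this kind could pass 0.05.

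**Figure D1:**
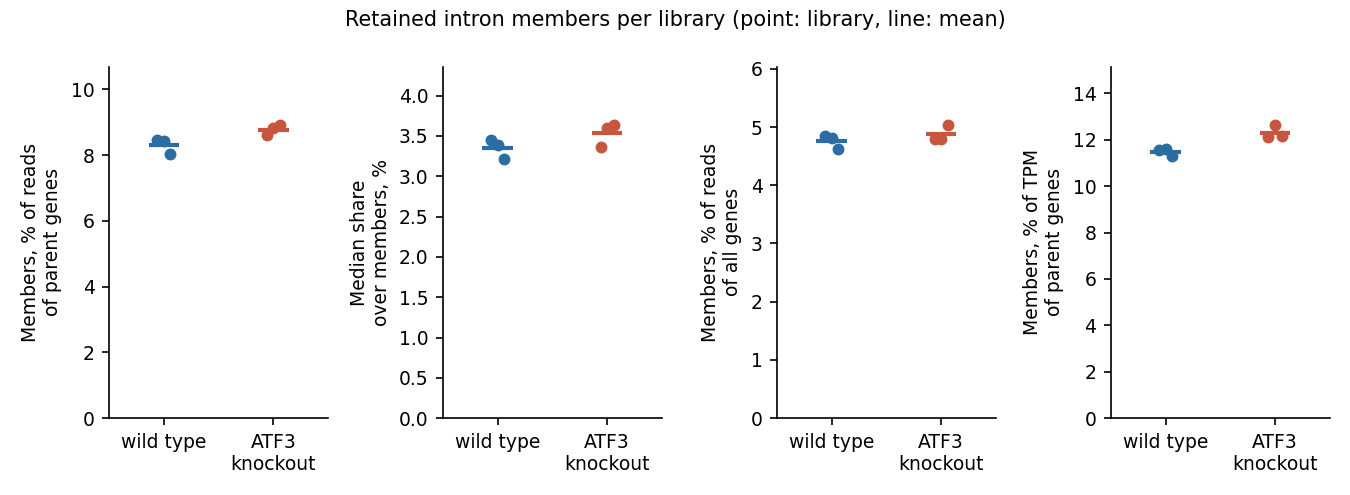
Members per library as a percentage of reads of their parent genes, as a median share, as a percentage of reads of all genes, and as a percentage of TPM of parent genes, on axes from 0. Points are the 3 wild-type (blue) and 3 ATF3 knockout (red) libraries and lines are means; the groups separate in the first and last panels (8.30 against 8.78%, and 11.5 against 12.3%) and overlap in the others.

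A few abundant transcripts weighed on the sum. The 10 members with the most reads, among them transcripts of ribosomal protein genes, took 13.9 to 15.0% of all member reads in the wild type and 10.6 to 12.6% in the knockout. The parent genes of these 10 were themselves lower, with 1.72 to 1.76 of every 100 joined reads in the wild type against 1.31 to 1.61. Without these 10 members the difference was 0.622 points. The sum also depends on how many reads each parent gene holds, and the part of this in the difference was not tested. Types were compared on another measure, the percentage of all joined reads. On it, all retained_intron transcripts held 4.83 to 5.09% in the wild type and 5.03 to 5.28% in the knockout, which overlapped. Other non-coding or decay-prone types were lower in the knockout on that measure. Transcripts typed nonsense_mediated_decay held 3.66 to 3.76% of joined reads in the wild type and 3.54 to 3.60% in the knockout, and processed_transcript entries 3.72 to 3.80% and 3.39 to 3.62%. In bulk RNA, fewer cells of a type and less RNA per cell cannot be told apart, and the same holds for a share that differs in every cell and in some cells.

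No single member passed the test of its share. The share is the reads of the transcript as a percentage of all reads of its gene, and 7344 members had enough other reads of the gene to be tested. The edgeR quasi-likelihood test called 0 of 7344 at an adjusted p of 0.05, against a background of 0% of 39664 transcripts of all types (smallest adjusted p = 0.0973). At an unadjusted p under 0.05, 550 members were higher in the knockout libraries (7.49%, background 4.59%) and 342 lower (4.66%, background 4.64%). Shares in the libraries of both groups did not overlap for 974 members that were higher (13.3%, background 9.46%) and 615 that were lower (8.37%, background 9.36%). DESeq2 called 229 higher (3.12%, background 3.04%) and 155 lower (2.11%, background 3.14%), diffSpliceDGE called 14 and 5 of 7317 (backgrounds 0.38% and 0.327%), and limma called 3 and 1 (backgrounds 0.0832% and 0.0529%). Without wild type replicate 1 the lower members at an unadjusted p under 0.05 numbered 183 in place of 342, and the higher ones 475.

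The members as a class leaned towards a higher share. The median log2 odds change of the share, knockout minus wild type, was 0.07, and 56.6% of members were above 0. Over all transcripts tested the median was 0.00 with 50.0% above 0, and the medians were −0.01 for protein_coding, −0.06 for nonsense_mediated_decay and −0.01 for processed_transcript entries. Leaving out each library in turn gave member medians between 0.04 (without wild type replicate 3) and 0.09 (without ATF3 knockout replicate 1). With all retained intron transcripts of a gene summed, 0 of 4048 genes passed the edgeR test, 585 were higher without overlap (14.5%, background 10.4%) and 340 lower (8.40%, background 10.2%), and DESeq2 called 146 and 90 (backgrounds 2.68% and 2.81%). At an unadjusted p under 0.05 edgeR gave 369 higher and 213 lower genes (9.12% and 5.26%, backgrounds 6.35% and 6.29%).

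In level, scaled to the library, 0 of 7377 members tested by edgeR passed (smallest adjusted p = 0.0562). At an unadjusted p under 0.05, 682 were higher and 397 lower (9.24% and 5.38%, backgrounds 7.78% and 7.9%), and DESeq2 called 238 and 158 (backgrounds 2.05% and 2.14%). The parent genes changed more often: edgeR called 556 of 3883 higher (14.3%, background 11.4%) and 444 lower (11.4%, background 9.72%). A share can differ through the transcript, through the rest of the gene, or through both.

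ATF3 itself had a retained intron transcript whose share was higher in the knockout libraries while its level was not. ENST00000465155.5 (chr1:212608670-212619247, plus strand, 1626 bases) keeps the 811-base intron shown above. It held 46.2, 26.8 and 54.7 estimated reads in the wild-type libraries and 29.9, 56.8 and 33.7 in the knockout libraries. These overlapped, and the level differed by −0.06 on the log2 scale. Its share of ATF3 reads was 7.29, 5.80 and 8.65% against 20.5, 24.8 and 25.5%, means of 7.25 ± 1.43% and 23.6 ± 2.73% (SD, n = 3 each). The shares did not overlap, with a log2 odds change of 2.00 (SE 0.27, adjusted p = 0.172 by edgeR; DESeq2 called it, adjusted p = 5.1e-07). The protein-coding transcript ENST00000341491.9 was part of the other side of this ratio, with 389, 284 and 398 reads against 0, 95.3 and 45.4. Another protein-coding transcript, ENST00000613954.4, had 164, 138 and 136 reads against 104, 49.1 and 43.1. Where the CRISPR/Cas9 edit lies is not given in the sources used here, so its place relative to the retained intron was not examined.

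**Figure D2:**
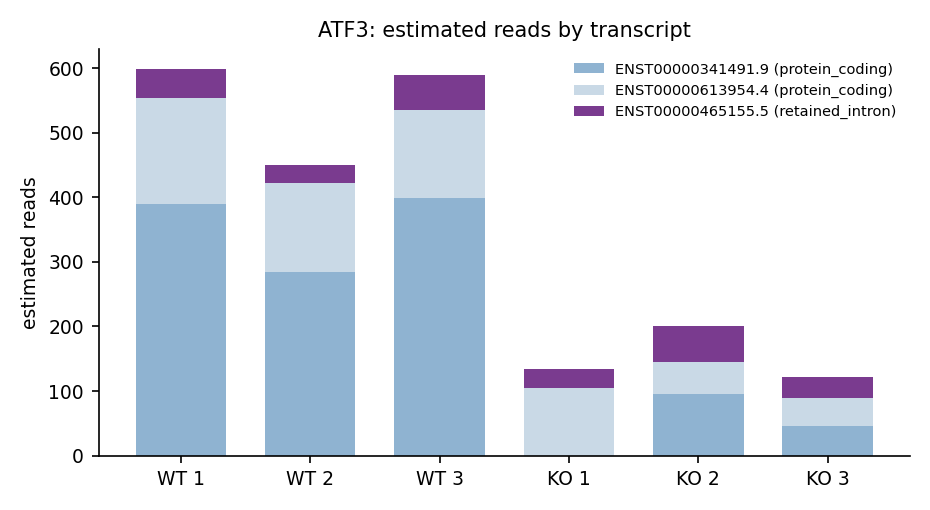
Estimated reads of the 3 ATF3 transcripts with a mean of 20 or more, stacked for each wild-type (WT) and knockout (KO) library. The purple retained intron segment keeps a like height in both groups (26.8 to 56.8 reads) while the protein-coding segments below it are smaller in every knockout library.

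By the smallest p, 5 members with a higher share were named, none past the edgeR test. PRKCSH encodes the beta subunit of glucosidase II, which trims glycans in the endoplasmic reticulum. Its transcript ENST00000587290.5 (chr19:11447934-11449422) had shares of 0.576, 0.613 and 0.682% in the wild type and 1.51, 1.54 and 1.47% in the knockout (log2 odds change 1.29, SE 0.11, adjusted p = 0.0973 by edgeR). Every base of this transcript was also in an exon of another transcript of the gene. RFXANK is a subunit of the RFX complex that drives MHC class II genes. Its transcript ENST00000541873.6 (chr19:19192913-19198901) had 0.546, 0.305 and 0.218% against 2.66, 2.99 and 2.69% (log2 odds change 2.97, SE 0.32, adjusted p = 0.117 by edgeR). Over all retained intron transcripts of RFXANK the shares overlapped, at 13.9, 9.83 and 18.8% against 21.9, 24.1 and 15.6%.

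The other 3 had no reads in any wild-type library. NDRG1, a gene induced by hypoxia and stress, had 0 reads of ENST00000521026.5 in the wild type and 8.07, 7.88 and 12.5% of its reads in the knockout. Its knockout reads were 170, 212 and 660, most of them in ATF3 knockout replicate 3. With the reads of each group pooled and the wild type set at 3 reads, its pooled share was at least 452-fold higher, a value weighted towards that library. PIP5K1A makes the membrane lipid phosphatidylinositol 4,5-bisphosphate, and ENST00000489625.1 went from 0 to 2.01, 1.53 and 2.62%, a pooled share at least 40.6-fold higher. It held no whole intron, and only 11 of its bases lay outside the exons of other transcript types. Protein-coding transcripts of PIP5K1A moved as well. ENST00000409426.5 went from 0 in every wild-type library to 26.4, 23.1 and 22.7%. ENST00000368888.9 went from 38.7, 36.5 and 30.8% to 12.5, 3.60 and 13.1%. ITGB7 encodes the beta 7 integrin of leukocytes, and ENST00000549462.1 went from 0 to 3.92, 4.93 and 3.44%, a pooled share at least 33.4-fold higher. All 3 members (of NDRG1, PIP5K1A and ITGB7) had estimated reads in every knockout library and in no wild-type library. They thus met the limit of 20 reads through the knockout libraries alone. Every base of the NDRG1 and ITGB7 members was also in an exon of another transcript of the gene. Their values, zeros included, therefore rest on the allocation of shared reads, which the bounds on fold do not cover.

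The ITGB7 value did not extend to the intron. A second member, ENST00000589179.5, keeps the same 672-base intron and held 8.78, 7.54 and 8.55% in the wild type against 3.64, 4.03 and 4.78% in the knockout. Over all retained intron transcripts of ITGB7 the shares were 12.004, 8.44 and 11.8% against 9.24, 10.9 and 9.36%, which overlapped. Estimated reads can move between transcripts that share most of their bases. Of 898 introns held by 2 or more members, 25 had a member higher and a member lower without overlap. Among all 7428 members, 33 had no reads in any wild-type library and 13 had none in any knockout library. Over all 39664 transcripts tested, the same counts were 467 and 400. A value of 0 in at least 1 library was found in 9.22% of members and in 17.9% of all transcripts tested.

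**Figure D3:**
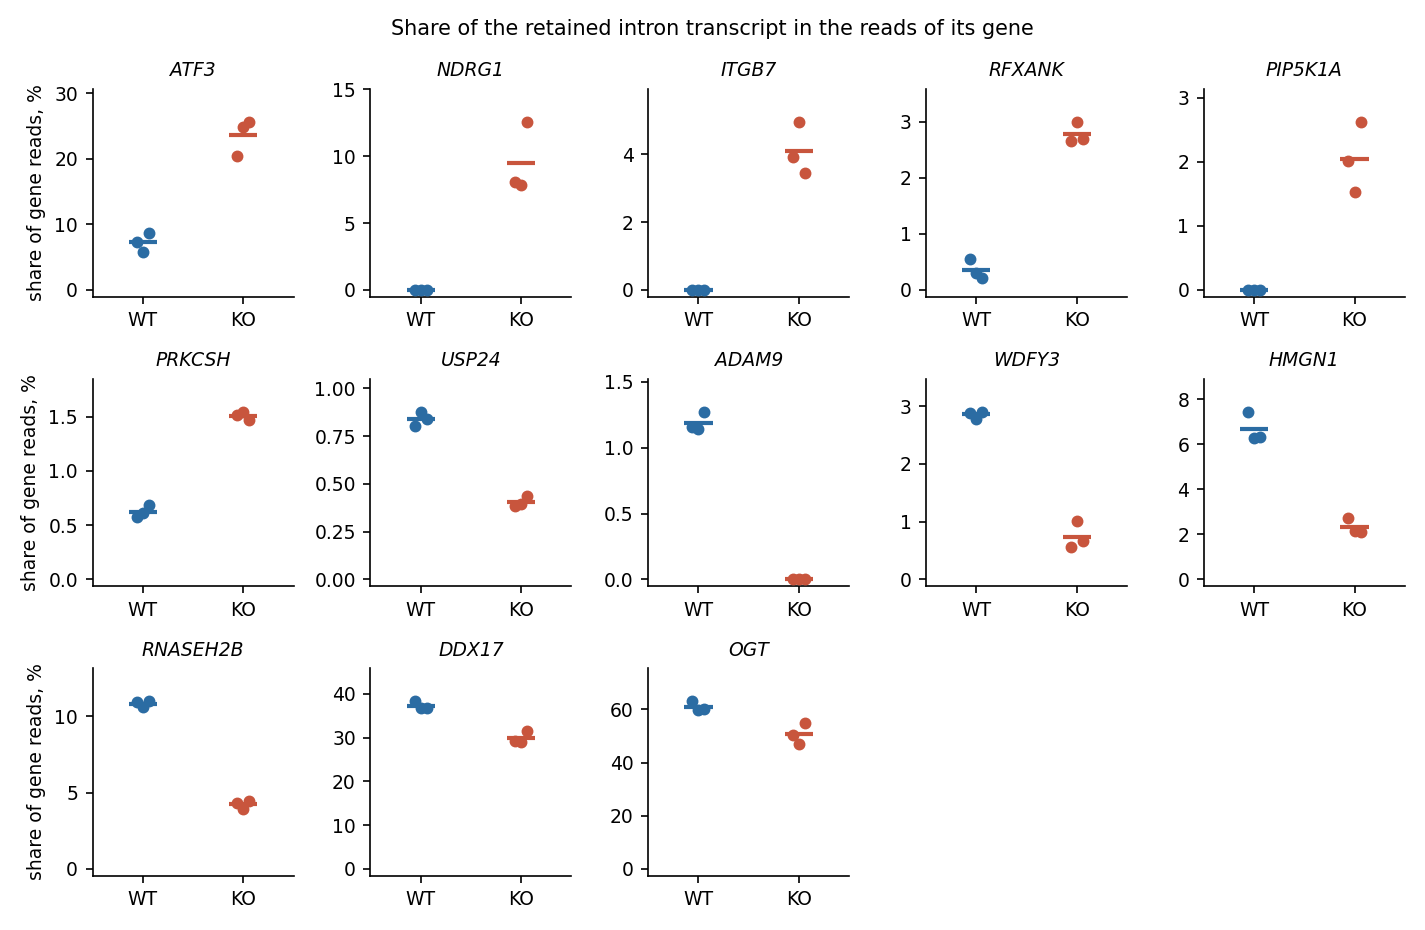
Share of the reads of its gene held by the retained intron transcript of ATF3, of the 10 members with the smallest p, and of DDX17 and OGT, in percent on axes that start at about 0 and differ by panel. Points are the 3 wild-type (WT) and 3 knockout (KO) libraries and lines are means; no panel has overlapping groups, from USP24 (0.839 against 0.407%) to OGT (60.9 against 50.8%).

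The 5 members with a lower share and the smallest p were likewise not past the edgeR test. RNASEH2B is a subunit of RNase H2, which removes RNA from DNA. Its transcript ENST00000613449.4 (chr13:50940823-50970456) held 10.9, 10.6 and 11.0% in the wild type and 4.30, 3.93 and 4.44% in the knockout, a log2 odds change of −1.46 (SE 0.13, adjusted p = 0.0973 by edgeR). HMGN1 binds nucleosomes, and ENST00000492280.5, with the 1288-base intron shown above, held 7.42, 6.28 and 6.29% against 2.73, 2.15 and 2.12% (−1.59, SE 0.16). Here the retained intron sum of the gene moved less, from 22.6, 20.1 and 21.7% to 19.6, 14.9 and 15.8%. WDFY3, a scaffold of selective autophagy, gave 2.89, 2.78 and 2.90% against 0.559, 1.00 and 0.659% (ENST00000426414.6). USP24, a deubiquitinase, gave 0.804, 0.876 and 0.838% against 0.386, 0.397 and 0.437% (ENST00000512504.1). ADAM9, a membrane metalloprotease, gave 1.15, 1.14 and 1.27% against 0 in all 3 knockout libraries (ENST00000481058.1), a pooled share at least 30.1-fold lower. This transcript met the limit of 20 reads through the wild-type libraries alone.

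Limma called 4 members, and DESeq2 called all 4. They were the NDRG1 and RNASEH2B transcripts above and transcripts of PRICKLE1 and MSL3, picked out with their values in view. PRICKLE1 acts in planar cell polarity, and ENST00000640840.1 held 0 reads in the wild type and 26.1, 30.2 and 16.2% of the gene in the knockout. MSL3 belongs to a histone acetyltransferase complex, and ENST00000648207.1 held 0 in the wild type and 8.69, 24.2 and 18.4% in the knockout. With no wild-type reads, NDRG1, PRICKLE1 and MSL3 met the limit of 20 reads through the knockout libraries alone, so that their calls support nothing further.

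OGT, the enzyme that adds O-linked N-acetylglucosamine to proteins, has an intron known to be detained. Its transcript ENST00000488174.5 (chrX:71533104-71574655) held 63.0, 59.7 and 59.99% of OGT reads in the wild type against 50.5, 47.0 and 55.0% in the knockout. The groups did not overlap (60.9 ± 1.82% against 50.8 ± 4.01%, SD, n = 3 each), with a log2 odds change of −0.59 (SE 0.16, adjusted p = 0.399 by edgeR; 0.0099 by DESeq2). The protein-coding OGT transcript ENST00000373719.8 went the other way in share, from 35.4, 38.4 and 38.4% to 48.1, 51.6 and 43.6% without overlap, also not past the edgeR test.

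DDX17, an RNA helicase of splicing and microRNA processing, showed the same direction. Its transcript ENST00000216019.11 (chr22:38485681-38506294), with the 3940-base intron shown above, held 38.3, 36.9 and 36.8% against 29.3, 29.03 and 31.6% (log2 odds change −0.48, SE 0.10, adjusted p = 0.294 by edgeR; 1.3e-06 by DESeq2). CLK1, a kinase of splicing factors whose own introns are a textbook case of detention, had 32.7, 32.8 and 38.8% against 34.0, 15.0 and 31.2% for ENST00000473565.5. The low value was ATF3 knockout replicate 2 alone, and the other 5 libraries lay between 31.2 and 38.8%. The sum over CLK1 retained intron transcripts had the same shape, 51.4, 50.1 and 49.6% against 48.2, 24.5 and 48.4%.

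The most read members hardly differed. RPS23 (ENST00000504293.5, with the 78-base intron shown above) held 60.2, 58.6 and 61.1% of its gene in the wild type and 60.1, 60.8 and 62.5% in the knockout. RPL4 (ENST00000561775.5) held 31.6, 31.1 and 32.4% against 32.5, 32.1 and 33.7%, and RPS2 (ENST00000533161.5) 24.7, 26.4 and 24.2% against 25.2, 26.6 and 22.9%. All 3 overlapped, with log2 odds changes of 0.07, 0.07 and −0.02 (SE 0.08, 0.07 and 0.10). The VCP member, of the segregase of the ubiquitin system, held 27.1, 26.3 and 25.6% against 24.4, 27.6 and 25.3%. The MCM7 member, of the replicative helicase, held 39.6, 40.6 and 41.8% against 45.3, 42.9 and 44.9% without overlap (log2 odds change 0.22, SE 0.10, adjusted p = 0.591 by edgeR). Only 1 base of the MCM7 member lay outside the exons of other transcript types. ATP5ME had the largest share of the members named, 82.2 to 84.2% in the wild type and 82.6 to 84.3% in the knockout.

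Of members with a mean of 100 reads or more and 100 other reads of the gene, some with large differences were picked after their values were seen. AUP1, a lipid droplet and ER quality control protein, held 31.4, 35.7 and 26.2% against 42.9, 50.7 and 43.7% (ENST00000463900.5). RBM25, a splicing regulator, held 46.2, 41.8 and 43.2% against 33.6, 29.1 and 30.2% (ENST00000532683.5), and CHORDC1, a chaperone partner of HSP90, 28.8, 32.9 and 22.7% against 13.2, 10.9 and 15.0% (ENST00000533724.5). DESeq2 called each of these 3 and edgeR called none. The difference exceeded 10 percentage points in 128 of 7428 members. Some large differences rested on libraries listed at 0, as in DNAH1, where ENST00000486752.5 held 30.7, 0 and 0% against 52.2, 84.8 and 41.6%.

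The change in share was weakly related to GC content. Members were divided into 5 equal groups by the GC content of the transcript, from 28.4 to 41.4% in the lowest to 60.1 to 78.9% in the highest. The median log2 odds change was −0.02, 0.02, 0.07, 0.12 and 0.15 from the lowest to the highest group. Members higher without overlap numbered 133, 197, 183, 220 and 241, and members lower without overlap 200, 163, 105, 78 and 69, of 1461 to 1476 tested in each. In the lowest group that was 9.04% higher and 13.6% lower, and in the highest 16.3% higher and 4.67% lower, beside backgrounds of 9.46% and 9.36%.

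The median share in the highest group was 3.67, 3.74 and 3.48% in the wild type and 3.76, 4.06 and 4.18% in the knockout, without overlap. In the lowest group it was 3.10, 3.12 and 2.88% against 2.93, 3.03 and 3.03%, with overlap. The distance between these groups was 0.571, 0.615 and 0.596 points in the wild-type libraries and 0.833, 1.03 and 1.15 in the knockout libraries. Without ATF3 knockout replicate 2 or wild type replicate 1, the median log2 odds change of the lowest group was 0.00 and 0.01 in place of −0.02, while that of the highest stayed at 0.13 to 0.19 over all libraries left out. DESeq2 called 62 higher and 15 lower in the highest group (4.20% and 1.02%) and 35 and 69 in the lowest (2.38% and 4.69%), beside 3.04% and 3.14% of all transcripts.

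**Figure D4:**
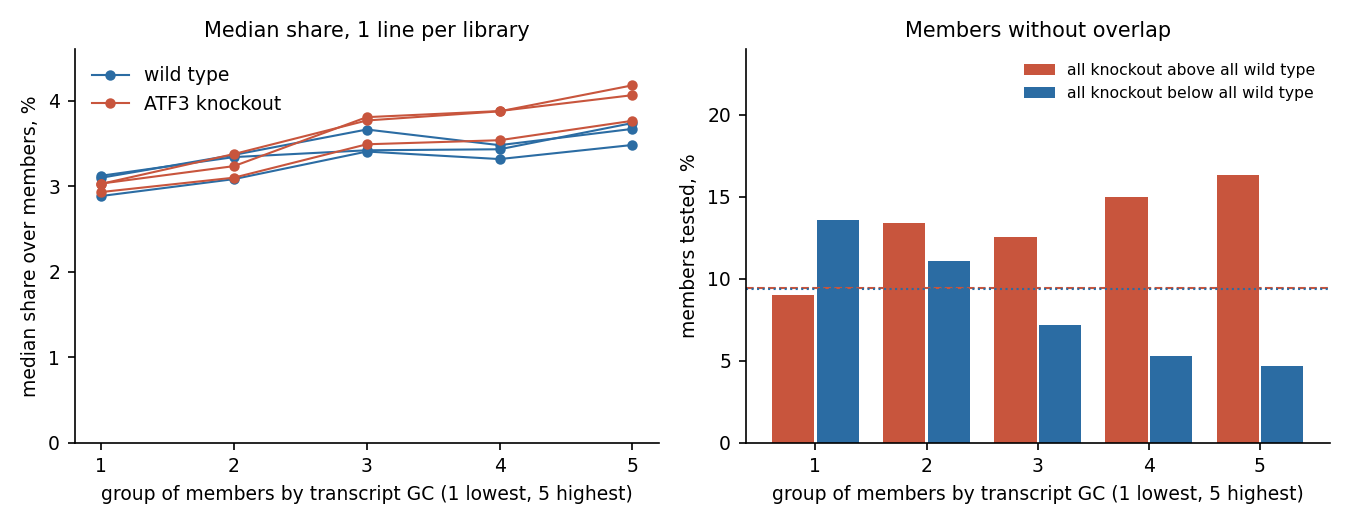
Left, median share of the members (percent) in each of 5 groups by transcript GC, 1 line per library. Right, percentage of tested members whose shares did not overlap, higher (red) or lower (blue) in the knockout, with dashed and dotted lines at 9.46 and 9.36% for all transcripts; the higher bars go from 9.04 to 16.3% and the lower bars from 13.6 to 4.67% across the groups.

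By the GC content of the intron itself, the lowest group again stood apart, but the order above it differed. Among the 3495 members with a whole intron, the median log2 odds change was 0.03 in the lowest of 5 groups by intron GC and 0.10, 0.17, 0.19 and 0.16 in the others. Members higher without overlap made up 10.2, 17.3, 19.3, 17.9 and 13.4% of these groups, with the most in the middle one, and members lower 13.8, 6.40, 5.12, 3.91 and 5.05%. The distance in median share between the highest and lowest groups was 0.713, 0.433 and 0.777 points in the wild type and 1.24, 1.33 and 1.35 in the knockout. The introns printed above give the range: UNC93B1, which escorts Toll-like receptors, went from 0.688, 1.34 and 1.18% to 2.53, 1.87 and 2.38% (ENST00000531152.2), and PCGF1, a Polycomb subunit, from 46.1, 32.6 and 37.4% to 58.1, 54.7 and 53.3% (ENST00000475863.5). At low GC, NARS1, the asparaginyl-tRNA synthetase, went from 1.53, 1.42 and 1.70% to 0.565, 0.633 and 0.926% (ENST00000411676.6), and CD46, a complement regulator, from 5.85, 4.53 and 4.72% to 2.88, 2.06 and 3.64% (ENST00000496723.1). These 4 were chosen for their differences, which are given as a description.

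Across the 7344 tested members, the Spearman correlation of the log2 odds change was 0.148 with transcript GC and 0.00 with length. The Pearson correlation with transcript GC was 0.079. With the GC content of the longest retained intron, over 3452 members, the Spearman correlation was 0.106 and the Pearson correlation 0.054. The members share libraries and genes, so these values are a description. In the same 5 ranges of GC, protein_coding transcripts had medians of −0.01, 0.00, −0.01, −0.02 and −0.02, and nonsense_mediated_decay transcripts −0.05, −0.06, −0.07, −0.03 and −0.10. Those of processed_transcript entries were higher at high GC, at −0.05, −0.04, 0.01, −0.01 and 0.04, and 13.6% of these entries were lower without overlap in the lowest group against 8.36% in the highest. The GC relation was thus not seen in retained intron members alone. The levels of the parent genes also followed the GC content of the members: edgeR called 46 higher and 193 lower of 1022 in the lowest group and 207 and 59 of 866 in the highest. The groups between had 102 and 171 of 1074, 167 and 106 of 1046, and 233 and 67 of 999, beside 11.4% and 9.72% of all genes. The part of this in the shares was not tested. With the trend of the shares on GC content in each library removed over all transcript types, the medians of the lowest and highest groups were 0.00 and 0.13.

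By gene function, the cytosolic ribosomal proteins stood at one end of the 16 lists. Of their 170 members in 70 genes, 137 (80.6%) had a log2 odds change above 0, against 56.6% of all members. Libraries did not overlap for 53 that were higher (31.2%, background 9.46%) and 5 that were lower (2.94%, background 9.36%). Over all members the figures were 13.3% and 8.37%. The median share was 0.304, 0.313 and 0.296% in the wild type and 0.359, 0.367 and 0.399% in the knockout, without overlap, with a median log2 odds change of 0.27. Most of these transcripts were minor: 118 of 170 held a mean share under 1%. Over all members with a share under 0.5%, 17.5% were higher without overlap and 7.06% lower, with a median of 0.19.

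Within the list, RPL9 had 2 members with the smallest p. ENST00000511075.5 held 0.994, 0.911 and 0.913% against 1.36, 1.29 and 1.32%, and ENST00000511643.6 held 0.967, 1.00 and 0.924% against 1.29, 1.37 and 1.48%. RPS28 had 0.143, 0.211 and 0.188% against 0.591, 0.354 and 0.403% (ENST00000602140.1). DESeq2 called 12 of the 170 higher (7.06%, background 3.04%) and 2 lower (1.18%, background 3.14%). The summed share of the list overlapped (8.60, 8.82 and 8.50% against 8.86, 8.77 and 8.74%). In level, 26 of the 70 parent genes were lower and 0 higher by edgeR at an adjusted p of 0.05 (background 9.72% and 11.4% of all genes), with a median log2 fold change of −0.25. How far the lower level of the genes enters the shares was not tested. Leaving out each library in turn kept the list's median log2 odds change between 0.23 and 0.29.

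**Figure D5:**
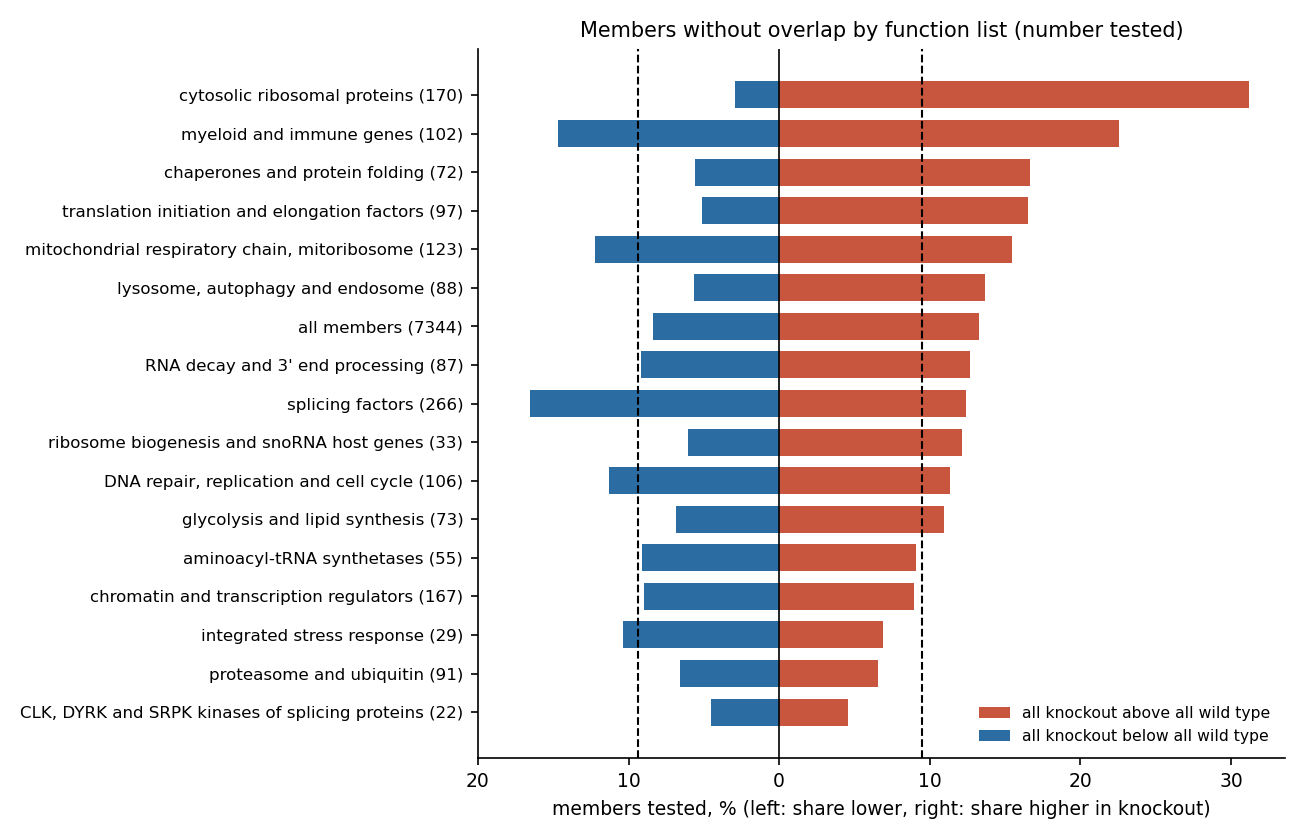
Percentage of tested members whose shares did not overlap between groups, for 16 function lists and all members, with higher shares in the knockout to the right and lower to the left; the number tested is in parentheses and dashed lines mark 9.46% and 9.36% of all transcripts. Ribosomal proteins reach 31.2% to the right, and splicing factors 16.5% to the left.

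Among splicing factors more members were lower than higher. Of 266 members in 88 genes, 33 were higher without overlap (12.4%, background 9.46%, all members 13.3%). Another 44 were lower (16.5%, background 9.36%, all members 8.37%). Their median log2 odds change was −0.01. The median GC content of this list was 45.0%, against 51.9% over all members, and its part in these counts was not tested. DESeq2 called 14 higher (5.26%, background 3.04%) and 16 lower (6.02%, background 3.14%). LUC7L2, a U1 snRNP-associated factor, had 2 members at lower shares: ENST00000463912.5 with 12.4, 8.74 and 12.2% against 5.01, 4.00 and 3.55%, and ENST00000435096.1 with 2.08, 1.71 and 1.93% against 0.598, 0.785 and 0.930%. EWSR1, an RNA-binding protein, had a higher one, 7.87, 8.32 and 7.18% against 11.6, 13.0 and 12.6% (ENST00000469669.5). HNRNPU, a nuclear matrix ribonucleoprotein, was also higher, at 0.042, 0.028 and 0.034% against 0.085, 0.084 and 0.080% (ENST00000639667.1). Of the 22 members of the CLK, DYRK and SRPK kinases, which phosphorylate SR proteins, 1 was higher and 1 lower without overlap (4.55% each).

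Mitochondrial respiratory chain and ribosome genes had 123 members with 19 higher (15.4%, background 9.46%) and 15 lower (12.2%, background 9.36%) without overlap. Over all members the figures were 13.3% and 8.37%. Their median share was 3.90, 3.95 and 3.82% against 4.73, 4.32 and 4.99%, without overlap. ATP5F1D, a subunit of ATP synthase, gave 5.37, 4.57 and 4.67% against 8.49, 10.9 and 8.93% (ENST00000590265.5). NDUFA7, of complex I, gave 1.03, 1.71 and 2.38% against 15.3, 6.09 and 11.0% (ENST00000601258.1). Both transcripts were higher in all 3 knockout libraries, and DESeq2 called both.

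Myeloid and immune genes had 102 tested members, with 23 higher (22.5%, background 9.46%) and 15 lower (14.7%, background 9.36%) without overlap. Their median share was 1.83, 1.79 and 2.01% against 2.40, 2.32 and 2.83%. Their summed share overlapped and its mean was lower in the knockout, at 9.08, 8.36 and 8.91% against 8.22, 8.13 and 8.96%. IRF3, a transcription factor of the interferon response, gave 0.955, 0.682 and 1.04% against 2.55, 3.03 and 2.86% (ENST00000597369.1). INPP5D, the SHIP1 phosphatase of blood cells, gave 1.42, 1.44 and 1.24% against 0.791, 0.711 and 0.661% (ENST00000451407.4). CD44, an adhesion receptor, gave 0.474, 0.514 and 0.439% against 0.164, 0.253 and 0.207% (ENST00000532339.1). VEGFA, an angiogenic factor, had the most reads of the list, and ENST00000497139.5 held 21.0, 23.0 and 22.1% against 23.2, 23.7 and 27.7%. Its shares did not overlap, with a log2 odds change of 0.23 (SE 0.13, adjusted p = 0.642 by edgeR). The gene was lower by 1.06 on the log2 scale (adjusted p = 0.0176 by edgeR). The retained intron sum of VEGFA overlapped, at 41.7, 44.4 and 43.9% against 44.4, 43.2 and 47.6%. Summed levels of marker lists moved with the groups beside these values: the 8 neutrophil and granule genes summed to 54.6 to 153 CPM in the wild type and 280 to 590 in the knockout, with MPO, MS4A3, S100A8 and S100A9 at 1 or more and ELANE, AZU1, PRTN3 and FCGR3B under 0.1. The 11 eosinophil genes summed to 37.3 to 52.6 against 118 to 184. Their part in the shares was not tested.

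The translation lists were mixed. Aminoacyl-tRNA synthetases, which charge tRNAs and are targets of the stress response, had 55 members. Of these, 5 were higher and 5 lower without overlap (9.09% each, backgrounds 9.46% and 9.36%). Their median share was nevertheless lower in all 3 knockout libraries, 1.61, 1.55 and 1.56% against 1.40, 1.36 and 1.41%. LARS1 gave 1.21, 1.41 and 1.01% against 1.96, 2.66 and 2.04% (ENST00000504323.5), and CARS2 gave 11.8, 12.2 and 10.7% against 8.03, 7.52 and 8.79% (ENST00000540006.5). TARS1 had the most reads and overlapped, at 9.38, 10.1 and 11.0% against 10.6, 10.4 and 10.4%. Initiation and elongation factors had 97 members with 16 higher (16.5%, background 9.46%) and 5 lower (5.15%, background 9.36%). EIF3G gave 0.712, 0.967 and 0.677% against 1.54, 1.45 and 1.37% (ENST00000590940.5). EIF3L, with the most reads, gave 29.7, 29.7 and 29.1% against 30.3, 32.9 and 32.8% (ENST00000482600.5). Only 11 bases of this transcript lay outside the exons of other transcript types. The retained intron sum of EIF3L overlapped, at 61.8, 63.4 and 58.9% against 63.7, 64.3 and 60.5%.

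Chaperones had 72 members with 12 higher (16.7%, background 9.46%) and 4 lower (5.56%, background 9.36%) without overlap. CALR, a lectin chaperone, gave 0.198, 0.252 and 0.189% against 0.425, 0.380 and 0.464% (ENST00000586803.1). HSPD1, the mitochondrial chaperonin, gave 2.30, 2.11 and 3.03% against 1.51, 1.12 and 1.39% (ENST00000486181.5). HSPA9, with the most reads, overlapped at 29.04, 32.2 and 30.6% against 30.3, 32.6 and 30.5%. The summed share of the list was lower, 6.95, 6.79 and 6.73% against 5.92, 6.19 and 5.80%. The count of members and the sum of reads thus pointed in different directions.

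RNA decay factors had 87 members with 11 higher and 8 lower (12.6% and 9.20%, backgrounds 9.46% and 9.36%, all members 13.3% and 8.37%). Their median log2 odds change was 0.14, with 64.4% above 0. EXOSC1, of the RNA exosome, gave 7.88, 8.27 and 6.35% against 12.6, 11.6 and 11.4% (ENST00000489158.1). SMG1, the kinase that starts nonsense-mediated decay, gave 0.626, 0.673 and 0.722% against 0.403, 0.366 and 0.308% (ENST00000561940.1). CPSF3, the endonuclease of 3′ end cleavage, gave 4.18, 4.11 and 4.23% against 2.19, 2.81 and 1.86% (ENST00000489629.1). PABPC1, the poly(A)-binding protein with the most reads of the list, overlapped at 1.64, 1.16 and 1.53% against 0.848, 1.74 and 1.88% (ENST00000518716.1).

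Integrated stress response genes, the programme that includes ATF3, had 29 members in 13 genes. Of these, 2 were higher and 3 lower without overlap (6.90% and 10.3%, backgrounds 9.46% and 9.36%). Besides ATF3, GPT2, an alanine transaminase, gave 4.21, 4.20 and 4.27% against 2.04, 2.33 and 3.28% (ENST00000569193.1). XPOT, the tRNA exporter with the most reads of the list, gave 4.89, 4.57 and 4.46% against 4.29, 3.53 and 4.17% (ENST00000542958.5), without overlap (log2 odds change −0.23, SE 0.12, adjusted p = 0.62 by edgeR). Neither passed the edgeR test.

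In the 6 lists not described above, 6.59 to 13.6% of members were higher without overlap (background 9.46%, all members 13.3%). Between 5.68 and 11.3% were lower (background 9.36%, all members 8.37%). Ribosome biogenesis and snoRNA host genes had 33 members with 4 higher (12.1%) and 2 lower (6.06%). The nucleolin (NCL) transcript ENST00000494618.1 gave 8.001, 7.93 and 8.09% against 8.66, 8.31 and 8.17%. Proteasome and ubiquitin genes had 91 tested with 6 higher and 6 lower (6.59% each). Among the lower was PSME4, a proteasome activator, at 6.29, 6.10 and 6.23% against 3.47, 3.39 and 3.99% (ENST00000488687.5). Chromatin regulators had 167 with 15 each way (8.98%), led in reads by OGT. DNA repair, replication and cell cycle genes had 106 with 12 each way (11.3%). Glycolysis and lipid synthesis genes had 73 with 8 higher (11.0%) and 5 lower (6.85%). ENO1 (ENST00000645609.1) gave 17.6, 18.2 and 16.9% against 17.1, 16.7 and 15.8%. Lysosome, autophagy and endosome genes had 88 with 12 higher (13.6%) and 5 lower (5.68%), and the autophagy kinase ULK3 (ENST00000570276.5) gave 48.9, 53.0 and 49.6% against 54.7, 52.2 and 49.0%.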

How the data were processed

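The authors deposited, for each library, a Salmon table of estimated counts of reads, TPM and lengths for 177456 transcripts, per the file headers. Per the submitters' processing notes, the build was hg38 and the tools included FastQC 0.11.9 and Salmon 1.6.0. A stranded kit was used per the labels' protocols. Salmon's library type, bias options and transcript set were not given in the sources used here, so none is assumed. The deposited TPM values served for 1 alternative share. Transcripts were joined by identifier, version ignored, to GENCODE 29 on GRCh38 (167027 joined, 7412 members with the same version). The 10429 others, with 3.59 to 3.82% of reads, were left out.

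Estimated counts were rounded to whole numbers. The reads of each transcript and the other reads of its gene formed 2 columns per library, fitted with edgeR 4.0.16 (R 4.3.3, glmQLFit and glmQLFTest) with a term per library, and the transcript term in knockout minus wild type was tested over 39664 transcripts with at least 20 mean reads on both sides, Benjamini-Hochberg adjusted at 0.05. Levels were tested with TMM factors and filterByExpr. DESeq2 1.42.0, limma 3.58.1 (log2 odds, pseudocount 0.5) and diffSpliceDGE were alternatives, as were other minimums, a GC trend removed, the replicate number as a block and each library left out. The pipeline was tested on simulated data. Bounds against a group at 0 use 3 reads over the group and cover counting error only.

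The members, the function lists and the rest of the design were chosen with earlier results of these data known. The text names ATF3, the 5 members with the smallest p in each direction (fewer than 5 were called), the 3 with the most reads, and the most read member of each list. Other names are examples with a small p or a large difference, chosen after their values were seen. Overlapping transcripts of a gene can exchange estimated reads.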

Additional observations from a re-analysis of the deposited data

How the results depend on the processing

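In the edgeR share fit, the counts of called members stayed at 0 in both directions with minimums of 50 and 1, with the same version only, with the GC trend removed, with the replicate block alone or with the GC trend removed, and without each library in turn (0 to 0). DESeq2 gave 229 higher and 155 lower members, diffSpliceDGE 14 and 5, and limma 3 and 1. For gene sums DESeq2 gave 146 and 90, and for levels 238 and 158, in place of 0. The cause was not tested.

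The difference in summed share (0.473 points) was 0.114 over all reads joined to a gene, 0.820 as a share of TPM and 0.182 as a median over members, the last chosen after seeing the data, and lay between 0.344 and 0.564 without each library in turn. With the replicate block it was 0.473 by construction, since each replicate number holds a library of each group. The distance between the highest and lowest GC groups (0.411 points) was 0.665 by intron GC and lay between 0.339 and 0.498 without each library in turn. The replicate numbers did not pair the libraries: correlations of same-numbered libraries were −0.0039, 0.0034 and 0.014, and the block changed no call.

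Of 428 values of the 29 named members under alternatives, 393 kept direction and side of the threshold, 18 were called only by DESeq2, limma or diffSpliceDGE, and 17 turned sign, in members not called. Log2 odds changes that turned sign were 0.060 and 0.030 for RPS2 (without ATF3 knockout replicate 3 and wild type replicate 2). For PABPC1 they were 0.35, 0.086 and 0.032 (without ATF3 knockout replicate 1, wild type replicate 1 and wild type replicate 3), 0.032 (diffSpliceDGE), 0.016 (GC trend removed) and 0.014 (with the block). For TARS1 it was −0.0097 (without wild type replicate 1), for VCP 0.010 (without ATF3 knockout replicate 1), and for HSPA9 −0.018 and −0.023 (without ATF3 knockout replicate 2 and wild type replicate 1). For ATP5ME they were −0.015 (GC trend removed, with and without the block), −0.00079 (diffSpliceDGE), −0.034 and −0.039 (without ATF3 knockout replicate 2 and wild type replicate 3). Over all libraries left out in turn, the values ran from −0.085 to 0.060 for RPS2, −0.23 to 0.35 for PABPC1, −0.0097 to 0.12 for TARS1, −0.11 to 0.010 for VCP and −0.039 to 0.068 for ATP5ME. Members near 20 reads carry large counting error, and 1054 members with no base of their own rest on the authors' allocation of shared reads.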
